A study of Mus musculus with 4 samples.

Results

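*In vitro* MDSCs were bone marrow (BM) cells differentiated into myeloid-derived suppressor cells, immature myeloid cells that suppress T cells, and 10 transcription factors that direct the myeloid lineages were followed in them: *Cebpa*, *Cebpb*, *Cebpd*, *Cebpe*, *Gfi1*, *Spi1*, *Irf8*, *Klf4*, *Runx1* and *Egr1*. The members were chosen by gene symbol from their known roles, with earlier results of these data known. All 10 were found among the 24346 genes of the series and passed the filter on low values. BM cells of female C57BL/6J mice aged 6 to 8 weeks were cultured for 4 days with 40 ng/ml GM-CSF. The Control group (n = 2) received no further cytokine, and the G-CSF group (n = 2) also received 5 ng/ml G-CSF, so both groups were differentiated with GM-CSF and they differed in G-CSF alone. RNA of the whole culture was sequenced, and the methods describe no sort before it, so a change in the number of cells of a type and a change in RNA per cell cannot be told apart.

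Myeloid differentiation is directed by a small set of transcription factors that bind each other's genes. PU.1, encoded by *Spi1*, and RUNX1 open myeloid enhancers in progenitors, and C/EBPα is needed for the step to the granulocyte-monocyte progenitor. C/EBPε and GFI1 then carry granulocytic cells through granule formation, IRF8 and KLF4 direct the monocytic branch, and C/EBPβ drives granulopoiesis when infection or cytokines raise demand. GFI1 is a zinc finger repressor that opposes monocytic genes, whereas EGR1 is an immediate early zinc finger activator that favours the macrophage branch. The G-CSF receptor signals through JAK kinases, STAT3 and the MAP kinase pathway, and C/EBP factors lie downstream of it.

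Promoter sequence of *Gfi1*, the member that rose, of *Klf4* and *Irf8*, which held motifs, and of *Cebpa* and *Cebpb* is shown beside the values below. Sequences came from RefSeq (GRCm38.p6), in which 6 of the 10 members had 9 promoter windows of 300 bases each, running from 250 bases before to 50 bases after an annotated start. Windows were searched on both strands for the C/EBP motif TTGCNNAA, the STAT motif TTCNNNGAA, the EGR motifs GCGTGGGCG and GCGGGGGCG, the RUNX motif TGTGGT and the PU.1 motif AGGAAGT. Of 32851 promoter windows of this length, 10.8% held the C/EBP motif, 8.3% the STAT motif, 0.6% and 2.9% the EGR motifs, 16.8% the RUNX motif and 9.4% the PU.1 motif. A match is a description of the letters and not of a bound site. In the stretches printed here, from 5′ to 3′ on the strand of the gene, capitals mark the motif. The first is the stretch of the *Gfi1* promoter (chr5:107725930-107725959, minus strand) around its C/EBP match, which began at position -143 from this RefSeq start. All 250 bases before this start lie in an exon that GENCODE M21 gives to the opposite-strand gene *A430072P03Rik*, and some also lie in a *Gfi1* exon, since *Gfi1* begins further upstream there. The window at the other *Gfi1* start held none of the motifs.
Gfi1: cgaaggtaggtTTGCTGAActgctgtgcct
The second is from the *Klf4* promoter (chr4:55532650-55532679, minus strand), where an EGR motif lay on the opposite strand to the gene at position -194 and is printed as its reverse complement.
Klf4: gcccctccctCGCCCCCGCccccacgtgcg

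The window at the downstream *Irf8* start held none of the motifs. The window at the upstream start held the STAT motif at positions -171 and -153, 2 matches within a short distance. Its 250 bases before the start (chr8:120736108-120736357, plus strand) are given with both matches in capitals. *Cebpa* (chr7:35119043-35119292, plus strand) and *Cebpb* (chr2:167688665-167688914, plus strand) are shown with it as the C/EBP members with a matched promoter, and neither window held any of the motifs searched.
Irf8: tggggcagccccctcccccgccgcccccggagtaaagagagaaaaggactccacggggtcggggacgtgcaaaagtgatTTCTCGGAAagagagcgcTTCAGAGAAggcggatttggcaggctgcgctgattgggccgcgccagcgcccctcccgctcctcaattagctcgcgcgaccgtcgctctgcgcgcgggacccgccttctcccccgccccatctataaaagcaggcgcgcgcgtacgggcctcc
Cebpa: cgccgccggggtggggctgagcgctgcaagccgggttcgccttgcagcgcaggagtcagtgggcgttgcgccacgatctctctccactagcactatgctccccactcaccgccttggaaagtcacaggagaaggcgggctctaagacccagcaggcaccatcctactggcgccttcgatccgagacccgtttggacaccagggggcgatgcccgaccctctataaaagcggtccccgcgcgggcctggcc
Cebpb: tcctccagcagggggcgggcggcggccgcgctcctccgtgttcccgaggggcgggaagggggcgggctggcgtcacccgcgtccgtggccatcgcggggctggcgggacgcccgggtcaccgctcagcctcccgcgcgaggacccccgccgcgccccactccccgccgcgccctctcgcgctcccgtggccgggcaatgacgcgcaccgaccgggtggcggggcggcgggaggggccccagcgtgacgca
The *Cebpb* window was among the richest in G and C of all promoters, with 80.7% GC and 50 CpG dinucleotides, and 99.2% of promoters had a lower GC share. The *Cebpa* window held 67.3% GC and 29 CpG, the upstream *Irf8* window 70.0% and 38, and the median GC over all promoters was 52.7%. *Runx1* held the RUNX motif at positions 28 and 36 after 1 of its starts and an EGR motif at position -163 before the other. *Cebpd*, *Cebpe*, *Spi1* and *Egr1* were not matched.

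Expression was given as FPKM, reads scaled by transcript length and library depth, in 1 file for each library. The files summed to 641609.7 to 670353.9 FPKM with 14674 to 14890 genes above 0, and the steps between low values corresponded to 12450000 to 15600000 mapped reads per library. The markers listed for neutrophils were high in every library, at a summed level of 51420 to 76680 FPKM, most of it from *S100a8* and *S100a9*. The neutrophil markers *Ngp* and *Ltf* measured 3361.38 to 5434.28 and 757.846 to 2266.38 FPKM. Monocyte markers summed to 1312 to 1485 FPKM, most of it from *Ly6c2* at 999.629 to 1147.92 FPKM. Markers listed for both branches of MDSCs were thus expressed, while the share of each branch was not measured here. The extraction text of the labels speaks of liver, while the methods speak of cells. The hepatocyte genes *Alb*, *Apoa1*, *Ttr* and *Tat* were at 0 in all 4 libraries, and the 7 hepatocyte markers summed to 1.383 to 2.295 FPKM.

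All 10 factors were expressed, over a range of levels from *Egr1* to *Spi1*. *Spi1* was the most abundant member at 366.4 ± 7.75 FPKM in Control (mean ± SD, n = 2), above 97.8% of the 12006 genes tested. *Cebpb* followed at 165.7 ± 13.9 FPKM and *Cebpe* at 59.75 ± 9.32 FPKM. *Klf4*, *Irf8*, *Cebpd* and *Cebpa* formed a group between 23.71 and 28.84 FPKM in which each overlapped its neighbour in the order. *Runx1* lay below them at 18.84 ± 0.92 FPKM, then *Gfi1* at 8.082 ± 0.33 FPKM and *Egr1* at 2.912 ± 0.0813 FPKM, each apart from the next. With G-CSF the order was the same at both ends, and *Cebpa* moved up to follow *Cebpe*, at 27.8 ± 0.298 FPKM and overlapping *Klf4*, with *Cebpd* now apart at 21.07 ± 0.531 FPKM. In terms of level, *Egr1* exceeded 18.4% and *Gfi1* 47.9% of the genes tested.

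**Figure D1:**
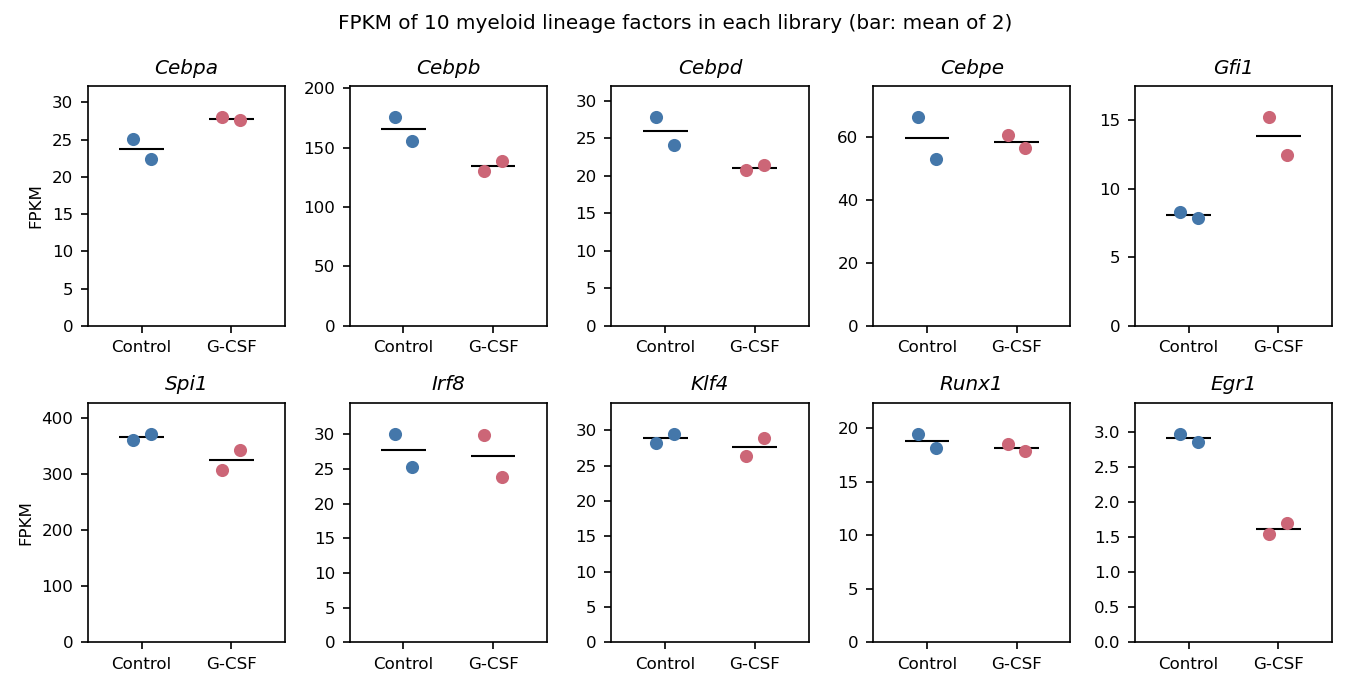
FPKM of each of the 10 factors (vertical axes, linear from 0, each gene on its own scale) in the 2 Control and the 2 G-CSF libraries; points are libraries and bars the mean of 2. *Gfi1* and *Cebpa* sit higher in both G-CSF libraries, *Egr1*, *Cebpb*, *Cebpd* and *Spi1* lower, and *Cebpe*, *Irf8*, *Klf4* and *Runx1* overlap. *Cebpa* and *Spi1* did not pass the test.

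G-CSF went with a higher level of *Gfi1* and a lower level of *Egr1*, *Cebpb* and *Cebpd*, while the other 6 members did not pass the test. *Gfi1* rose 1.7-fold and *Egr1* was 1.75-fold higher in Control, and *Cebpb* and *Cebpd* were both 1.23-fold higher in Control. Of the 12006 genes tested with limma on log2(FPKM + 0.1), 12.5% were higher and 11.4% lower with G-CSF at an adjusted p under 0.05 (Benjamini-Hochberg), against 1 and 3 of the 10 members. These shares are of the same order and 10 genes are few, so the counts show nothing particular to the factors. The threshold of the study's methods, which adds a fold change over 2, was met by 1.44% of the genes tested and by 0 of the 10 members. It was met by 0 members with limma-voom too. An unadjusted p under 0.05 was found for 6 of the 10 members and for 38.8% of the genes tested. Both G-CSF values lay above both Control values for 2 members (*Gfi1* and *Cebpa*) and below them for 4 (*Egr1*, *Cebpb*, *Cebpd* and *Spi1*), against 33.6% and 32.5% of all genes tested.

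**Figure D2:**
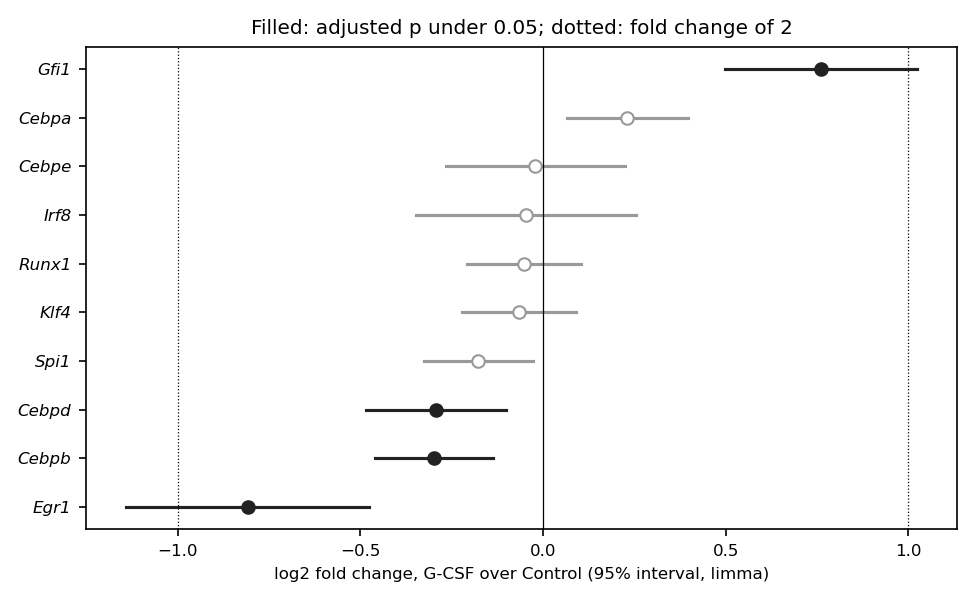
Log2 fold change of each factor, G-CSF over Control (horizontal axis), with its unadjusted 95% interval from limma. Filled points had an adjusted p under 0.05, and no point lies beyond the dotted lines at a fold change of 2.

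*Gfi1* (ENSMUSG00000029275, 6 exons on the minus strand at 107716657 to 107726036 of chromosome 5, GRCm38) measured 8.315 and 7.848 FPKM in the Control libraries and 15.229 and 12.445 FPKM in the G-CSF libraries. Both G-CSF libraries were above both Control libraries, by more than the spread within either group. The log2 fold change was 0.76 ± 0.109 (SE), with a 95% interval of 0.50 to 1.02 and an adjusted p of 0.0073 (limma), and 133 genes tested had a larger rise. An estimated 294 to 514 reads stood behind each value. Leaving out each library in turn gave log2 fold changes of 0.62 to 0.91, with adjusted p of 0.00617 to 0.0195. When limma was run without the trend of variance on level, the adjusted p was 0.0573. *Gfi1b*, its paralog in the erythroid and platelet lineages, had a log2 fold change of 0.30 and an adjusted p of 0.181.

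*Egr1* (ENSMUSG00000038418, 3 exons on the plus strand of chromosome 18) measured 2.969 and 2.854 FPKM in Control and 1.542 and 1.698 FPKM with G-CSF. Both G-CSF libraries lay below both Control libraries, and *Egr1* had both the lowest level and the largest absolute log2 fold change of the 10. The log2 fold change was -0.81 ± 0.139, with a 95% interval of -1.14 to -0.48 and an adjusted p of 0.0116 (limma), and 245 genes tested fell further. Only 54 to 114 reads were estimated behind each value, the fewest of the 10. Leaving out each library in turn gave -0.88 to -0.74, with adjusted p of 0.0248 to 0.0446, and without the trend the adjusted p was 0.0512. *Nab2*, a corepressor that binds EGR proteins, fell by 0.27 on the log2 scale (adjusted p = 0.0261, limma), whereas its relative *Nab1* was at -0.15 with an adjusted p of 0.188.

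The genes whose values over the 4 libraries lay nearest to those of *Egr1* were *Traf5*, an adaptor of TNF receptors, *Fmnl2*, a formin that builds actin filaments, and *Tmem71*, a membrane protein. Nearness was the Euclidean distance between log2 values centred on each gene's mean, and it was 0.0557, 0.0631 and 0.0655 over 4 libraries. Their log2 fold changes were -0.84, -0.76 and -0.79. With 4 libraries in 2 groups, such likeness chiefly records a fall of similar size.

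*Cebpb* and *Cebpd* fell with G-CSF, whereas *Cebpa* and *Cebpe* did not pass the test. *Cebpb* (ENSMUSG00000056501, a single exon at 167688915 to 167690418 of chromosome 2, plus strand) measured 175.497 and 155.833 FPKM in Control and 129.998 and 139.087 FPKM with G-CSF. *Cebpd* (ENSMUSG00000071637, a single exon at 15887286 to 15891031 of chromosome 16, plus strand), a C/EBP induced by cytokines and acute phase signals, measured 27.772 and 24.037 FPKM in Control and 20.698 and 21.449 FPKM with G-CSF. For both genes the groups did not overlap, and Control replicate 1 was the highest library. *Cebpb* fell by 0.30 on the log2 scale (SE 0.0676, 95% interval -0.46 to -0.14, adjusted p = 0.025, limma) and *Cebpd* by 0.29 (SE 0.0797, interval -0.48 to -0.10, adjusted p = 0.0419, limma). Both calls were lost without Control replicate 1, where the log2 fold changes were -0.21 (adjusted p = 0.0788) and -0.19 (0.163), and without G-CSF replicate 1, at -0.25 (0.0853) and -0.27 (0.125), by limma. The call of *Cebpd* was also lost without G-CSF replicate 2 (adjusted p = 0.0752, limma).

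Some exon sequence of these genes is shared with genes on the opposite strand. *Cebpb* shares 312 of its 1504 exon bases with *Tmem189*, which was itself lower with G-CSF, from 91.87 ± 0.812 to 80.06 ± 0.359 FPKM (log2 fold change -0.20, adjusted p = 0.0201, limma). *Cebpd* shares 562 of 3746 with *Spidr*, whose log2 fold change was 0.01 with an adjusted p of 0.944. The libraries were stranded, but whether the strand entered the calculation of FPKM is not given in the sources used here, and its part in the values was not tested. Apart from such overlaps on the opposite strand, no stretch of read length in the 10 factors occurred in the transcripts of another gene on the same strand.

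*Cebpa* (ENSMUSG00000034957, a single exon at 35119293 to 35121928 of chromosome 7, plus strand) had the opposite direction to *Cebpb*, with 25.038 and 22.375 FPKM in Control and 28.008 and 27.586 FPKM with G-CSF. The groups did not overlap, and the G-CSF libraries lay closer to each other than the Control libraries did. The log2 fold change was 0.23 ± 0.0687 (95% interval 0.07 to 0.40), which did not pass the test (adjusted p = 0.0542, limma). It passed without Control replicate 1 (log2 fold change 0.31, adjusted p = 0.0399, limma), the same library without which *Cebpb* no longer passed. Without Control replicate 2 it was 0.15 (adjusted p = 0.216, limma).

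*Cebpe* (ENSMUSG00000052435, 2 exons at 54710360 to 54712174 of chromosome 14, minus strand), the C/EBP of late granulocytic differentiation, measured 66.341 and 53.159 FPKM in Control and 60.571 and 56.586 FPKM with G-CSF. Both G-CSF values lay between the Control values. Its log2 fold change was -0.02, with a 95% interval of -0.27 to 0.22 and an adjusted p of 0.903 (limma).

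The 4 C/EBP transcripts together summed to 294.6 and 255.4 FPKM in Control and to 239.3 and 244.7 FPKM with G-CSF, and *Cebpb* supplied the largest share in all libraries. That share was 59.6% and 61.0% in Control against 54.3% and 56.8% with G-CSF. *Cebpa* supplied 8.5% and 8.8% in Control against 11.7% and 11.3% with G-CSF, a separation wider than the spread within groups (8.6% ± 0.186 against 11.5% ± 0.306, n = 2). The share of *Cebpe* was 22.5% and 20.8% against 25.3% and 23.1%, and that of *Cebpd* 9.4% in both Control libraries against 8.7% and 8.8%. Each of the 4 shares had groups that did not overlap. Such separation is common here: both G-CSF values lay above both Control values for 33.6% of all genes tested and below them for 32.5%. Since shares sum to a fixed whole, they are not independent of each other. FPKM is per length, so these are shares of transcripts as far as the transcript lengths used by the authors hold, and they say nothing of the proteins.

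**Figure D3:**
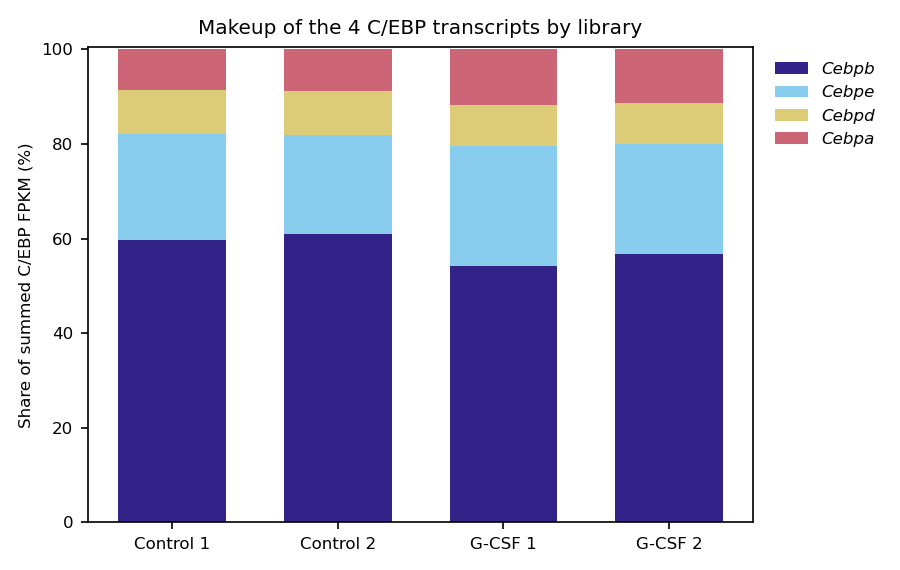
Share of each C/EBP transcript in the summed FPKM of the 4 (vertical axis, %) in each library, as stacked bars. *Cebpb* takes 59.6% and 61.0% in Control against 54.3% and 56.8% with G-CSF, and *Cebpa* 8.5% and 8.8% against 11.7% and 11.3%.

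*Spi1* (ENSMUSG00000002111, 5 exons at 91082390 to 91115756 of chromosome 2, plus strand) measured 360.913 and 371.88 FPKM in Control and 306.466 and 342.86 FPKM with G-CSF. The groups did not overlap, and G-CSF replicate 1 was the lowest. The log2 fold change of -0.18 ± 0.0617 (95% interval -0.32 to -0.03) did not pass the test (adjusted p = 0.0829, limma). Without G-CSF replicate 2 it was -0.26 and passed (adjusted p = 0.0348, limma), and without G-CSF replicate 1 it was -0.10 (adjusted p = 0.338, limma). With at least 6959 estimated reads in each library *Spi1* was the most deeply read member.

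The factors of the monocytic branch overlapped between the groups. *Irf8* (ENSMUSG00000041515, 9 exons at 120736358 to 120756694 of chromosome 8, plus strand) measured 30.097 and 25.358 FPKM in Control and 29.989 and 23.847 FPKM with G-CSF. The libraries numbered 1 were thus high and those numbered 2 low in both groups. *Klf4* (ENSMUSG00000003032, 5 exons at 55527143 to 55532466 of chromosome 4, minus strand) measured 28.195 and 29.492 FPKM in Control and 26.328 and 28.851 FPKM with G-CSF, which overlapped. Their log2 fold changes were -0.05 (95% interval -0.35 to 0.25, adjusted p = 0.814, limma) and -0.07 (-0.22 to 0.09, adjusted p = 0.5, limma). The interval of *Irf8* leaves room for a fall as large as that of *Cebpb*, while that of *Klf4* does not. *Runx1* (ENSMUSG00000022952, 8 exons at 92601466 to 92826149 of chromosome 16, minus strand) measured 19.492 and 18.191 FPKM in Control and 18.502 and 17.84 FPKM with G-CSF, also overlapping. Its log2 fold change was -0.05, with an interval of -0.21 to 0.10 and an adjusted p of 0.6 (limma). *Cbfb*, the partner that stabilises RUNX1 on DNA, was at 0.05 with an adjusted p of 0.467.

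Ratios between members within a library do not depend on the scaling of that library. The ratio of *Gfi1* to *Egr1* was 2.8 and 2.75 in Control against 9.88 and 7.33 with G-CSF, a 3.07-fold difference. *Gfi1* to *Irf8* was 0.276 and 0.309 in Control against 0.508 and 0.522 with G-CSF (1.76-fold), and *Cebpa* to *Cebpb* was 0.143 and 0.144 in Control against 0.215 and 0.198 with G-CSF (1.44-fold). Both G-CSF libraries were higher in all 3 ratios. For *Gfi1* to *Egr1* and *Cebpa* to *Cebpb* this had to be so, since the single genes moved apart without overlap. These ratios thus restate the changes given above. *Cebpe* to *Cebpb* was higher with G-CSF as well, by 0.28 on the log2 scale, and *Spi1*, *Irf8* and *Cebpe* each stood lower against *Cebpa*, at log2 differences of -0.41, -0.28 and -0.25. The difference of *Irf8* to *Cebpa* was -0.12 without G-CSF replicate 2 and -0.43 without G-CSF replicate 1, and that of *Cebpe* to *Cebpb* was 0.18 without G-CSF replicate 1. The direction of *Spi1* to *Cebpa* was likewise fixed by the values of the single genes. *Klf4* to *Cebpe* overlapped, at 0.425 and 0.555 against 0.435 and 0.51. An exact permutation test, two-sided, gave p = 0.333 for the other 7 of these 8 ratios, the smallest that 2 against 2 libraries allow, so none could pass 0.05. Adjusted over the 8 ratios (Benjamini-Hochberg), those exact p-values became 0.381.

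The other genes of the network were read from lists written from general knowledge, with earlier results of these data known. Their counts stand beside the 12.5% higher and 11.4% lower of all genes tested. Of the 3 other C/EBP family proteins, *Ddit3*, the stress-induced CHOP, fell by 0.37 on the log2 scale (adjusted p = 0.045, limma), and *Cebpg* and *Cebpz* did not pass the test, at -0.02 and 0.17. Of 33 other myeloid lineage factors 1 rose and 11 fell, with a median log2 fold change of -0.18 against 0.00 over all genes tested. The gene that rose was *Myb*, a factor of proliferating progenitors, from 8.125 and 7.159 FPKM to 19.896 and 18.074 FPKM (log2 fold change 1.30, adjusted p = 0.00153, limma). Among those that fell were *Irf5* and *Rxra*, at -0.38 and -0.55, *Egr2*, a relative of *Egr1*, at -0.59, and *Irf4* and *Id2*, at -0.53 and -0.34.

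Of 17 cofactors and regulators of the factors, 2 rose and 2 fell, shares close to the 12.5% and 11.4% of all genes tested, with a median of -0.09. *Trib1*, a pseudokinase that targets C/EBPα for degradation, measured 6.564 and 6.865 FPKM in Control and 3.89 and 3.636 FPKM with G-CSF. It was lower in both G-CSF libraries, by 0.82 on the log2 scale (adjusted p = 0.00538, limma). The histone deacetylases *Hdac2* and *Hdac1*, which act in corepressor complexes, rose by 0.36 and 0.28 (adjusted p = 0.00697 and 0.0147, limma).

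Of 16 genes of the G-CSF receptor pathway, 1 rose (0 with median-ratio scaling) and 6 fell, against 12.5% and 11.4% of all genes tested, with a median of -0.11. *Csf3r*, the receptor itself, measured 50.188 and 48.269 FPKM in Control and 34.626 and 40.346 FPKM with G-CSF. Its groups did not overlap, and it fell by 0.40 on the log2 scale (adjusted p = 0.0164, limma). The receptor kinases *Jak2* and *Tyk2* fell by 0.38 and 0.30, whereas *Stat3* was at 0.10 with an adjusted p of 0.203.

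Granulocyte genes listed as downstream of C/EBP factors split in both directions. Of 18 tested, *Cebpe* and *Gfi1* left aside, 4 rose and 10 fell, against the same 12.5% and 11.4%, with a median of -0.49. The 4 that rose were the primary granule proteases and peroxidase of early granulocytic cells: *Mpo* (1.52), *Prtn3* (1.42), *Ctsg* (1.25) and *Elane* (0.99, all log2 fold changes). The 10 that fell included the integrin *Itgb2l* (-1.11) and, named after their values were seen, the secondary granule genes of later cells *Camp* (-1.81) and *Ltf* (-1.32). *Cebpe*, the member known to drive secondary granule genes, had the log2 fold change of -0.02 given above.

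Of 19 monocyte genes listed as downstream of *Irf8*, *Klf4* and *Spi1*, 1 rose and 12 fell, against 12.5% and 11.4% of all genes tested, with a median of -0.23. *F13a1*, a coagulation factor of classical monocytes, rose by 0.32 (adjusted p = 0.0108, limma), and *Irf5*, the protease *Ctss* and the lipid amidase *Naaa* fell by 0.38, 0.41 and 0.54. Of 21 immediate early genes other than *Egr1*, 2 rose and 12 fell, with a median of -0.30. *Btg2* and *Egr2* fell by 0.54 and 0.59, while *Myc* and *Dusp2* rose by 0.48 and 0.84. Several genes, such as *Egr2* and *Irf5*, stand in more than 1 list. No list was tested as a set, and nothing particular to any list follows from these counts.

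**Figure D4:**
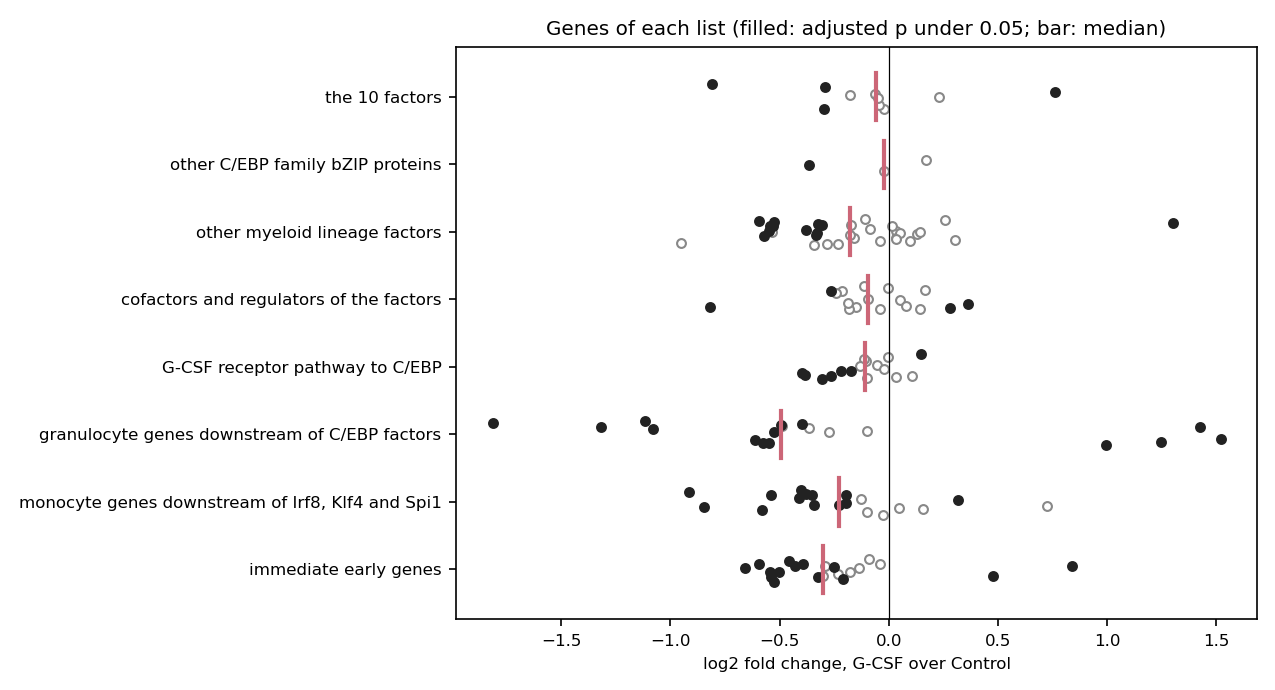
Log2 fold change, G-CSF over Control (horizontal axis), of every tested gene in each list, with the 10 factors in the top row; filled points had an adjusted p under 0.05 and bars mark medians. The granulocyte row spreads widest, from *Camp* at -1.81 to *Mpo* at 1.52, while the 10 factors lie between -0.81 and 0.76.

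Several markers of the cell types that such a culture could hold moved with the condition too. The counts below are of few genes and stand beside the 12.5% higher and 11.4% lower of all genes tested. No marker list was tested as a set. Of 7 neutrophil markers tested 5 were lower with G-CSF and 0 higher. Their sum was 66320 to 76680 FPKM in Control and 51420 to 51470 FPKM with G-CSF. *S100a8* and *S100a9* supplied most of that sum, at 33120 and 29630 FPKM on average in Control. *S100a8* itself did not pass (adjusted p = 0.0878, limma). Monocyte markers were nearly balanced, with 1 higher and 1 lower of 6 and sums of 1431 to 1485 against 1312 to 1385 FPKM. Of 6 macrophage markers 5 were lower (517.7 to 536.6 against 428.5 to 442.5 FPKM), of 7 dendritic cell markers 3 (532.4 to 642.3 against 271.9 to 351.6 FPKM), of 6 mast cell and basophil markers 4 (128.6 to 130.5 against 81.36 to 90.0 FPKM) and of 4 tested eosinophil markers 3 (437.7 to 479.3 against 204.6 to 250.3 FPKM), and none of these was higher. B cell markers summed to 3.782 to 5.567 FPKM, T and NK cell markers to 9.92 to 16.59 FPKM with *Ncr1* at 0 in all libraries, erythroid markers to 1.32 to 2.532 FPKM and megakaryocyte markers to 43.98 to 51.12 FPKM. Of these, 1 of 3 tested B cell markers, 2 of 3 tested T and NK cell markers and 1 of 4 megakaryocyte markers were lower, and the 1 erythroid and 1 hepatocyte marker tested did not pass. The part of these populations in the changes of *Gfi1*, *Egr1*, *Cebpb* and *Cebpd* was not tested.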

How the data were processed

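Poly(A) RNA libraries of 4 cultures (2 Control, 2 G-CSF) were read as 75-base single ends. The authors deposited FPKM per gene, 1 file for each library; the files name no unit, and FPKM was taken from the values and from the tools named. The submitters' processing notes name TopHat2 2.0.13, Bowtie2 2.2.3, SAMtools 0.1.19, Cufflinks 2.2.1 and mm10, with the gene annotation, filters and strand setting not given in the sources used here. No counts were used, and reads were estimated from the steps of low FPKM values with GENCODE M21 transcript lengths. Of 5758 low values 66.9% lay within 0.05 of a whole read, against 10.0% by chance. Depth is thus approximate, and intervals rest on replicate spread and on the variance trend over all genes tested. Of 24346 gene names, 23310 were found in GENCODE M21 and 649 more by an older symbol. The GENCODE transcript of *Cebpd* is longer than its RefSeq model, so its estimated reads are uncertain.

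A gene was tested if its estimated reads reached 10 in 2 or more libraries, summed to 15 or more, and came from a transcript over 200 bases. The test was made with limma 3.58.1 (R 4.3.3; eBayes with trend, no covariate, two-sided, Benjamini-Hochberg over all 12006) on log2(FPKM + 0.1), so fold changes of low genes are understated. The 95% intervals are not adjusted. Ratios were tested by exact permutation (SciPy 1.17.1). The labels number the replicates and the study calls them biological. With 2 cultures a group, the limma p-values rest on the spread between these libraries and on a variance trend over all genes tested. That trend carried 4.49 prior degrees of freedom, beside 2 residual ones from the libraries. Members and lists were chosen with earlier results of these data known. From each list the 3 genes of smallest p and known partners of the members were named, and a gene that makes up a count of 5 or fewer was named after its values were seen. The limma fit was tested on simulated data. Alternatives covered the pseudocount, filter, scaling, limma-voom, the variance trend, the replicate block and leaving out each library. *Ly6g* and *Hbb-bt*, listed as markers, were not analysed here, and some listed genes are not reported here.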

Additional observations from a re-analysis of the deposited data

How the results depend on the processing

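Of the 10 factors 1 was higher and 3 were lower with G-CSF. The number higher was 2 with a filter of 10 estimated reads in every library, with limma-voom and with the replicate block (*Cebpa* joining *Gfi1*), and 0 with eBayes without the trend. The number lower was 1 with no filter, where *Egr1* passed, and 0 without the trend. Leaving out each library gave 1 to 2 higher and 1 to 3 lower, with the lone library of the reduced group assumed to vary like the other group. Over all 12006 genes, calls fell from 1501 higher and 1369 lower to 20 and 30 without the trend and to 751 to 908 and 696 to 1007 without each library, and with no filter they were 882 and 744 of 16234 genes. Past a fold change of 2, counts fell from 64 higher and 109 lower to 25 and 32 with a pseudocount of 1 FPKM. They were 39 and 81 of 11461 genes with 10 reads in every library. A larger pseudocount understates fold changes of low genes by construction, and the causes of the other changes in count were not tested. *Spi1* passed with the replicate block (adjusted p = 0.0183, limma), as did *Cebpa* (0.0203). The replicate numbers are only numbers here, with 2 pairs and a correlation of 0.236 between same-numbered libraries. *Cebpd* did not pass with a filter of 0.1 FPKM (adjusted p = 0.0667, limma). The log2 fold changes that changed sign when a library was left out were those of *Cebpe* (-0.18 to 0.14), *Irf8* (-0.21 to 0.12) and *Klf4* (-0.13 to 0.001), and the log2 ratio of *Klf4* to *Cebpe* (-0.24 to 0.15). Scaling by upper quartile or median ratio changed no call among the 10. With 54 to 114 reads, *Egr1* is the member that depth limits most.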

Other observations

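*Irf8* differed more between replicate numbers than between conditions, a pattern noticed after its values were seen. It was higher in replicate 1 than in replicate 2 by 0.25 on the log2 scale in Control and by 0.33 with G-CSF. Its change between conditions was -0.05. The pattern was not particular to *Irf8*. *Cebpe* was higher in replicate 1 by 0.319 in Control and 0.098 with G-CSF, beside -0.021 between conditions. *Runx1* was higher by 0.099 and 0.052, beside -0.051. Of the 7 dendritic cell markers 6 were higher in replicate 1 of both groups as well, the most of any marker list, named after the values were seen. The count was 4 of 6 for B cell, 3 of 7 for neutrophil, 3 of 6 for macrophage and 1 of 6 for monocyte markers. *Flt3*, the receptor of dendritic cell progenitors, differed by 0.72 in both groups, *Zbtb46*, a factor of classical dendritic cells, by 0.69 and 0.73, and *Ccr7*, a receptor of migrating dendritic cells, by 0.38 and 0.51. *Xcr1*, a marker of cross-presenting dendritic cells, went the other way at -0.50 and -0.13, at levels of 0.158 to 0.266 FPKM. *Flt3* was low as well, at 0.315 to 0.973 FPKM. Of all genes tested 27.1% were higher and 28.2% lower in replicate 1 of both groups, and 5 of the 10 factors were higher. *Klf4* (-0.065 in Control and -0.132 with G-CSF) and *Spi1* (-0.043 and -0.162) were lower in replicate 1 of both groups. What the numbers stand for is not given in the sources used here, and the part of dendritic cells in the level of *Irf8* was not tested.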
